A study of Mus musculus with 2 samples.

Results

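Acoxl, Bex2, Myh7, Nrn1, Spink5, Sord and Nupr1 are 7 of the 31053 genes listed for both libraries, and they were chosen because their counts were lower in type 2 alveolar epithelial (AT2) cells of the library with Cre than in those of the library without it. Their AT2 levels are therefore given as a description with no test, and nothing is drawn from their direction there. The cells came from whole lungs of mice aged 5 week, captured with the Chromium 3' v3 chemistry. The Cre library came from Nkx2.1 Cre;Lkb1f/f mice, in which Cre is driven by Nkx2.1, a transcription factor gene of lung epithelium, so that recombination is limited to cells with a history of that gene's activity. The control library came from Lkb1f/f mice, which carry the same floxed Lkb1 alleles (gene symbol Stk11) and no Cre. Each library pooled 3 mice, so each genotype is 1 sample: no test between genotypes was possible, and every interval below covers counting error only.

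AT2 cells line the alveoli, make and secrete surfactant and serve as progenitors of the flat type 1 (AT1) cells. LKB1 is a protein kinase upstream of AMPK, the cell's energy sensor, and of its relatives, which adjust metabolism and growth to energy supply. The 7 genes have separate known roles. Nupr1 encodes a small stress-induced nuclear protein. Acoxl encodes a relative of the peroxisomal acyl-CoA oxidases, and Sord encodes sorbitol dehydrogenase, the polyol pathway enzyme that turns sorbitol into fructose. Bex2 belongs to the brain-expressed X-linked family, and Nrn1 encodes neuritin, a membrane-anchored protein best known from neurons. Myh7 encodes the beta myosin heavy chain of heart and slow skeletal muscle. Spink5 encodes LEKTI, a Kazal-type serine protease inhibitor best known from skin.

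After filters, 14675 cells of the Cre library and 12455 cells of the control library were kept, with a median of 3250 unique molecular identifiers (UMIs, 1 per captured transcript) per Cre cell and 3611 per control cell. Each cell was put into 1 of 30 marker-defined classes by its own marker score. The AT2 gate held 1817 Cre cells (12.4%) and 1482 control cells (11.9%), with median AT2 marker scores of 0.786 (Cre) and 0.827 (control) on a scale of 0 to 1. These are cells above a score limit rather than a separately labelled type, and 14 Cre cells and 12 control cells lay near the limit. Median depth in the gate was 7988 UMIs in the Cre library and 10253 UMIs in the control library. The libraries shared 59 barcodes among kept cells and 1 among AT2-gated cells. Levels are given as CPM, the UMIs of a gene summed over a class and scaled to all UMIs of that class.

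Stk11 itself stood at 29.3 CPM (443 UMIs) in Cre AT2-gated cells, against 49.4 CPM (702 UMIs) in control ones, a ratio of 0.593 (95% counting interval 0.526 to 0.669). In AT1-gated cells the Stk11 ratio was 0.560 (0.325 to 0.979), and in club-gated cells it was 1.10 (0.813 to 1.49). The median gene with at least 50 UMIs had a ratio of 1.19 in AT2-gated, 1.07 in AT1-gated and 1.55 in club-gated cells. The club interval of Stk11 lay below its class median. Stk11 transcripts were thus still counted in Cre AT2-gated cells, and the files do not show which part of the transcript they came from.

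The proximal promoters of 5 of the 7 genes were read from RefSeq on GRCm38.p6. Nrn1 had no listed promoter, and that of Spink5 was not examined. Each spans 250 bases before and 50 bases after a listed start, and 4 are shown because their genes differ in expression pattern. Most UMIs of Acoxl, Bex2 and Myh7 fell in AT2-gated cells in the control lung, while Nupr1 was found in many classes. By level, Bex2 was higher still in the 8 neuroendocrine-gated control cells, at 530 CPM against 228 CPM in AT2-gated ones. Capitals mark matches to 4 short motifs searched on both strands: the half-site TGACG bound by CREB-type factors, the NKX2-1 core CACTTG, the C/EBP-type pattern TTGCNNAA and the TATA box TATAAA.
Acoxl, chr2:127854378-127854677, plus strand: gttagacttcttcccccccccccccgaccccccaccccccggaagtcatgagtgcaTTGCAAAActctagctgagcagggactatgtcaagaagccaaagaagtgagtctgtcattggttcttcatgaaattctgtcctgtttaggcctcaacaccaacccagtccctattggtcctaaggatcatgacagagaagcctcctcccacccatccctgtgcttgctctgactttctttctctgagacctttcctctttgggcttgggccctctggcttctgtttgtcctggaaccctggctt
Bex2, chrX:136068187-136068486, minus strand: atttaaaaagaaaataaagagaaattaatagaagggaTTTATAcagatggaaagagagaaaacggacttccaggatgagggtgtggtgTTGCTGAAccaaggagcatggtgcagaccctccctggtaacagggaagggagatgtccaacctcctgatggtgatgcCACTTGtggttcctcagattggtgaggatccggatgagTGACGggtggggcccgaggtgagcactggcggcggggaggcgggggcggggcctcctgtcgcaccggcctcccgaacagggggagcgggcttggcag
Myh7, chr14:54994577-54994876, minus strand: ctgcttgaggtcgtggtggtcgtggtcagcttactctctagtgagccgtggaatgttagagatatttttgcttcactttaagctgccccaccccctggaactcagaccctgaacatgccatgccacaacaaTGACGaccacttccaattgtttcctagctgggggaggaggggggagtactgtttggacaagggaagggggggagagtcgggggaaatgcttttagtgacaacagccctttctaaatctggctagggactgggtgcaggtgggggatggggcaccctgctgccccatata
Nupr1, chr7:126625421-126625720, minus strand: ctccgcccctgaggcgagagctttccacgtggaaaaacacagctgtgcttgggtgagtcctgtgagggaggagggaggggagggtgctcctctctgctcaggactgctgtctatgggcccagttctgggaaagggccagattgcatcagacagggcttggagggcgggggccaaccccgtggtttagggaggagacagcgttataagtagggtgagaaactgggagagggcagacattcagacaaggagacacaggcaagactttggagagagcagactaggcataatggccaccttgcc
Acoxl held a C/EBP-type match 194 bases before the start. Bex2 held a CRE half-site at 47, an NKX2-1 core at 85, a C/EBP-type match at 162 and, on the opposite strand, a TATA match at 213 bases before its start. Myh7 held a CRE half-site 119 bases before the start, Sord an NKX2-1 core on the opposite strand 91 bases before it, and Nupr1 none of the 4. Among all 27025 promoters listed, 21.0% held the CRE half-site, 13.5% the NKX2-1 core, 10.8% the C/EBP-type pattern and 14.2% the TATA box, so single matches of this kind are common. The listed starts of Sord and Nupr1 lie 90 and 206 bases away from the principal transcript start of the GENCODE M21 annotation.

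Nupr1 was the most abundant of the 7 in control AT2-gated cells. It had 755 UMIs in Cre AT2-gated cells and 6720 UMIs in control ones, which is 50.003 CPM against 473 CPM, a ratio of 0.106 (0.0979 to 0.114). Each Cre and control cell of the gate was also thinned to 1000 UMIs, leaving out 70 Cre and 100 control cells that were shallower. A Nupr1 UMI was then found in 4.18% of Cre cells and 33.5% of control cells, while before thinning the shares were 19.6% (Cre) and 82.5% (control). B-gated cells showed Nupr1 in 0.999% (Cre) and 1.07% (control) of cells after the same thinning. Their median depths were 2020 UMIs (Cre) and 3069 UMIs (control). Nupr1 stood at 9.98 CPM (Cre) and 13.7 CPM (control) in B cells. The Sftpc counts of the same cells, read as free AT2 RNA, account for 0.223 and 1.63 CPM, so free AT2 RNA alone does not account for these levels. Free Nupr1 RNA from other classes was not estimated and may be part of them. Both AT2 shares lay above those of B cells. The gene, on chr7:126623249-126630861 (minus strand, 3 exons), is protein-coding, as are the other 6.

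Of the 2 enzyme genes, Acoxl was the more AT2-restricted. It had 1011 UMIs in Cre and 3925 UMIs in control AT2-gated cells, 67.0 against 276 CPM, a ratio of 0.242 (0.226 to 0.260). Thinned shares of cells with an Acoxl UMI were 6.24% in the Cre library and 22.3% in the control library, against 0% (Cre) and 0.0562% (control) of B cells. Acoxl was the most abundant of the 7 in Cre AT2-gated cells, above Nupr1. It lies on chr2:127838876-128123873 (plus strand, 18 exons).

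Sord had 283 UMIs in Cre and 1049 UMIs in control AT2-gated cells, 18.7 against 73.9 CPM, a ratio of 0.254 (0.222 to 0.290). The thinned share in Cre cells was 1.66% (exact interval 1.11 to 2.38%), against 6.22% in control cells. In Cre B-gated cells the share was 1.27% (0.764 to 1.97%), so at this depth the Cre AT2 share could not be told apart from that of B cells. Sord was, however, measured above free AT2 RNA in B cells, at 9.72 CPM in the Cre library, where the Sftpc counts of the same cells account for 0.0836 CPM. It lies on chr2:122234749-122265340 (plus strand, 9 exons).

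Bex2 and Nrn1 are both best known from neurons. Bex2 had 590 UMIs in Cre and 3234 UMIs in control AT2-gated cells, 39.1 against 228 CPM, a ratio of 0.172 (0.157 to 0.187). Its thinned shares were 3.66% of Cre cells and 19.5% of control cells. Nrn1 had 141 UMIs in Cre and 755 UMIs in control cells, 9.34 against 53.2 CPM, a ratio of 0.176 (0.146 to 0.211), with thinned shares of 1.09% (Cre) and 4.99% (control). Control AT2-gated cells held 755 Nrn1 and 1049 Sord UMIs, and without thinning Nrn1 was found in 16.7% of them and Sord in 44.7%. Nrn1 was thus in fewer cells than Sord relative to its UMIs. Bex2 lies on chrX:136066564-136068236 (minus strand, 3 exons) and Nrn1 on chr13:36725361-36735131 (minus strand, 3 exons), where Fars2 overlaps it on the opposite strand with 237 Cre and 223 control UMIs in AT2-gated cells.

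Myh7, a muscle motor protein gene, had 137 UMIs in Cre and 1139 UMIs in control AT2-gated cells, 9.07 against 80.2 CPM, a ratio of 0.113 (0.0940 to 0.135). Thinned shares were 0.859% of Cre cells and 7.45% of control cells, and no thinned B cell of either library had a UMI. Cardiac muscle markers were close to 0 in the same cells: Myh6, Actc1, Tnnt2, Tnni3, Mb and Nppa together had 14 UMIs in Cre cells and 17 UMIs in control cells (0.927 and 1.20 CPM), and Mb had none in either library. Myh7 lies on chr14:54970684-54994626 (minus strand, 41 exons), where antisense genes overlap it.

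Spink5 had the lowest ratio of the 7. It had 38 UMIs in Cre and 682 UMIs in control AT2-gated cells, 2.52 against 48.0 CPM, a ratio of 0.0524 (0.0368 to 0.0727). A single Cre cell held 12 of the 38 UMIs. Without the top cell of each library the ratio was 0.0365 (0.0237 to 0.0539). Thinned shares were 0.286% in Cre and 4.49% in control cells. Spink5 lies on chr18:43963235-44022501 (plus strand, 32 exons). Basal-cell markers were scarce beside it: Krt5, Trp63, Krt15, Krt17 and Krt14 together had 18 UMIs in Cre and 13 UMIs in control AT2-gated cells (1.19 and 0.916 CPM), with Trp63 at 0 in both.

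**Figure D1:**
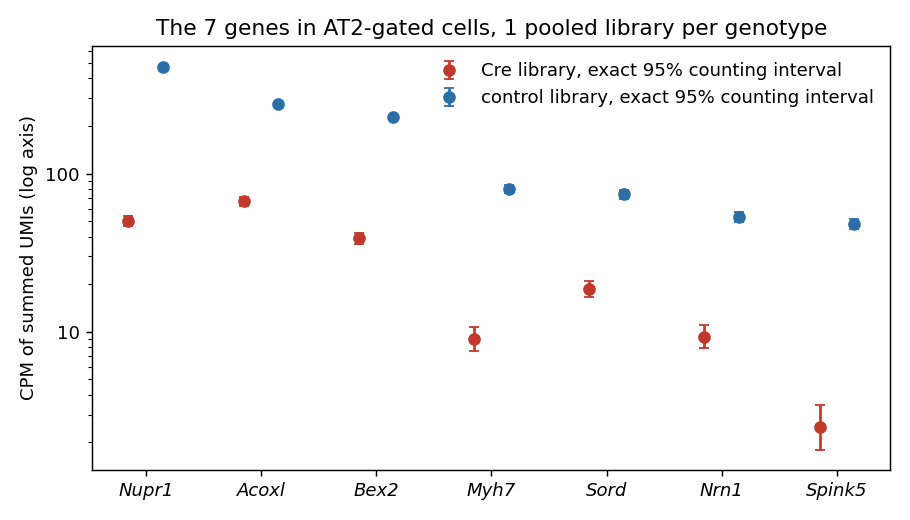
Level of each gene in AT2-gated cells, as CPM of summed UMIs on a log axis, with exact 95% counting intervals; each point is 1 pooled library. Cre points run from 2.52 CPM (Spink5) to 67.0 CPM (Acoxl), and control points from 48.0 CPM (Spink5) to 473 CPM (Nupr1).

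By the choice of genes, all 7 were at least 2-fold lower in the Cre library. Among 11304 genes with at least 50 UMIs in AT2-gated cells of both libraries together, 1.87% were at least 2-fold lower and 6.89% at least 2-fold higher, and the median ratio was 1.19. Divided by that median, 342 genes were at least 2-fold lower and 511 higher, against 211 lower and 779 higher as measured. In the order of all measured genes, 4 had a lower ratio than Spink5, 10 lower than Nupr1, 13 lower than Myh7, 21 lower than Bex2, 23 lower than Nrn1, 36 lower than Acoxl and 41 lower than Sord. Across cells of 2000 to 5000, 5000 to 10000 and over 10000 UMIs, the Acoxl ratio was 0.245, 0.249 and 0.228, and that of Nupr1 0.0700, 0.0998 and 0.126. Myh7 varied more, at 0.320 (0.113 to 0.910, 9 UMIs in each library), 0.0968 and 0.1003, as did Nrn1, at 0.192, 0.230 and 0.113.

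The cell-to-cell spread was read in AT2-gated cells of at least 2000 UMIs, 1695 in the Cre library and 1307 in the control library. In those with a Nupr1 UMI, the mean was 2.14 UMIs in Cre cells and 5.71 UMIs in control cells, and 1 cell reached 23 UMIs in the Cre library and 131 UMIs in the control library. For Acoxl the means were 2.20 UMIs (Cre) and 3.81 UMIs (control), and for Bex2 1.86 UMIs (Cre) and 3.96 UMIs (control). Thinned to 2000 UMIs, the means per cell with a UMI were closer: 1.35 UMIs (Cre) and 1.76 UMIs (control) for Nupr1, 1.26 (Cre) and 1.44 (control) for Acoxl, and 1.29 (Cre) and 1.47 (control) for Bex2. After thinning to 2000 UMIs, the variance over the mean, which is 1 for random sampling alone, was 1.01 for Sord in both libraries and 1.08 and 1.09 for Myh7 (Cre and control). In Cre and control cells it was 1.53 and 1.45 for Bex2, and 1.69 and 1.83 for Nupr1. For Nrn1 it was 1.30 (Cre) and 1.46 (control), and the tenth of control cells with most Nrn1 held 82.9% of its UMIs, against 37.0% for Sord. Sord and Myh7 had the values nearest 1, but the measure moves toward 1 as a gene's mean falls. Thinned control means were 0.161 UMIs for Sord, 0.165 for Myh7, 0.452 for Bex2 and 0.929 for Nupr1, so these genes were not ranked by evenness. Nrn1, at a lower control mean of 0.0972 UMIs, was more uneven than Sord. The value was 1.42 (Cre) and 1.28 (control) for Acoxl. For Spink5 it was 3.22 (Cre) and 1.38 (control), and 1 Cre cell held 12 of 38 Spink5 UMIs.

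Counting how many of the 7 genes each thinned cell showed, none was found in 1269 Cre cells (74.9%) and 226 control cells (17.3%). At least 3 were found in 9 Cre cells (0.531%) and 300 control cells (23.0%). The highest number found was 3 in the Cre library and 5 in the control library, with medians of 0 (Cre) and 2 (control). Within either library, the genes were almost unrelated from cell to cell: the pairwise correlations of thinned counts ran between -0.02 and 0.11 in Cre cells and between -0.03 and 0.15 in control cells, which in counts this sparse is a description only.

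**Figure D2:**
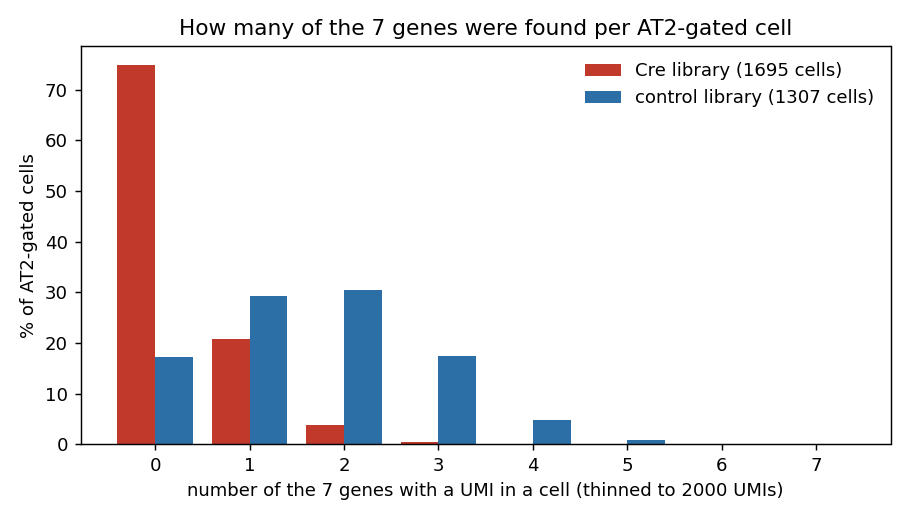
Number of the 7 genes with at least 1 UMI in each AT2-gated cell after thinning to 2000 UMIs, as a percent of 1695 Cre cells (left bars) and 1307 control cells (right bars). Cre cells gather at 0 (74.9%), and control cells spread over 0 to 5 with a median of 2.

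Some AT2-gated cells formed a shallow group in the joint clustering, with a median of 991 UMIs over the cluster and a median of 0 for Malat1, a nuclear-retained RNA. It held 123 Cre and 195 control AT2-gated cells. In these control cells Acoxl stood at 120 CPM (38 UMIs) and Myh7 at 9.50 CPM (3 UMIs), against 286 and 83.7 CPM in the control cells of the cluster that held most of the gate. Nupr1 stood at 589 CPM (186 UMIs) and Bex2 at 298 CPM (94 UMIs) there, against 481 and 232 CPM. In the Cre cells of the shallow group Acoxl stood at 71.7 CPM (12 UMIs), against 68.3 CPM in those of the larger cluster, and Bex2 at 95.7 CPM (16 UMIs), against 40.01 CPM. Nupr1 stood at 59.8 CPM (10 UMIs) in the shallow Cre cells and 47.1 CPM in the larger cluster, and Myh7 at 5.98 CPM (1 UMI) and 9.17 CPM. Acoxl was thus low in the shallow cells of the control library and not in those of the Cre library. Bex2 is among the 10 leading genes of the shallow cluster. The 7 genes took part in the clustering, so these levels are descriptive, and the part of RNA quality in them was not tested.

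Within the Cre library, AT2-gated cells of at least 2000 UMIs were set apart by whether they showed a UMI of Sox9, a transcription factor of distal lung progenitors during development. The 827 cells with a Sox9 UMI had a median of 8619 UMIs, and the 868 cells without had 7828. Acoxl stood at 31.3 CPM in cells with Sox9 and 106 CPM in cells without, a ratio of 0.295 (0.255 to 0.342). Spink5 stood at 0.900 CPM (7 UMIs) in cells with Sox9 and 4.30 CPM (31 UMIs) in cells without, a ratio of 0.209 (0.0777 to 0.484). A single cell without a Sox9 UMI held 12 of those 31 UMIs, and the Spink5 ratio without that cell was not computed. These were the 2 of the 7 at least 2-fold lower in cells with Sox9, where 0.588% of 10211 genes were and the median ratio was 1.01. Sord had a ratio of 0.566 (0.441 to 0.724) and Nupr1 of 0.624 (0.537 to 0.723). Bex2 had a ratio of 0.827 (0.700 to 0.976), and the intervals of Myh7 (0.776, 0.545 to 1.10) and Nrn1 (0.874, 0.616 to 1.24) held 1. Beside these, control cells of the same depth limit had Acoxl at 278 CPM and Nupr1 at 472 CPM, and the choice of genes fixes that these are higher. A cell without a Sox9 UMI may still have Sox9 transcripts, so the divide is one of detection.

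**Figure D3:**
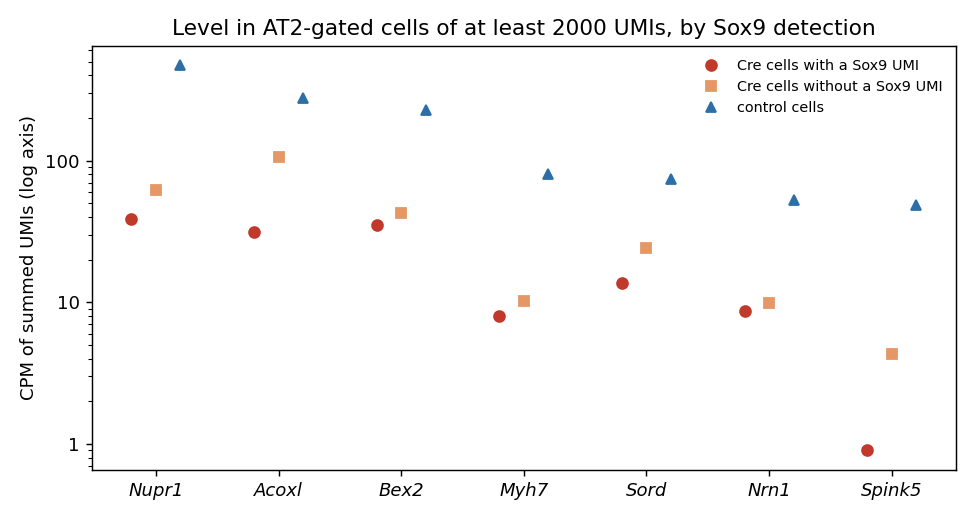
CPM of each gene, on a log axis, in Cre AT2-gated cells with a Sox9 UMI (circles, 827 cells), Cre cells without one (squares, 868 cells) and control cells (triangles, 1307 cells), all of at least 2000 UMIs. The circle lies farthest below the square for Spink5 and Acoxl, and each square lies below its triangle.

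The same Cre cells can be laid out by how many of the 7 genes they showed. This layout overlaps with the Sox9 divide, so it is a description and is not read as a separate result. In the 1269 Cre cells that showed none of the 7 genes after thinning, Sox9 stood at 206 CPM, Slc26a4 at 281 CPM and Retnla at 15511 CPM. In the 417 cells with 1 or 2 of them, these stood at 141, 190 and 12361 CPM, and in the 9 cells with at least 3 at 41.7 CPM (3 UMIs), 13.9 CPM (1 UMI) and 3727 CPM (268 UMIs). Il33 did not follow this order, at 772, 672 and 709 CPM. Stk11 was similar in the first 2 sets, at 29.7 and 29.0 CPM, and had no UMI in the 9 cells, where a limit of 3 counts is 41.7 CPM.

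Among the 22 classes with at least 50 cells in each library, Acoxl, Bex2, Myh7, Nrn1 and Spink5 were highest in AT2-gated cells in both libraries. Spink5, at 2.52 CPM in Cre AT2-gated cells, lay below the 3-count floor of shallow Cre classes, such as AT1 (3.74 CPM) and aerocytes (8.95 CPM). Its Cre rank could not be read against those classes. Of all Acoxl UMIs in kept cells, 92.7% fell in AT2-gated cells in the Cre library and 97.1% in the control library. In the Cre and the control library the shares were 76.4% and 93.4% for Bex2, 69.9% and 94.2% for Myh7, 80.1% and 93.7% for Nrn1, and 97.4% and 89.3% for Spink5. The Cre share of Spink5 rests on 38 of 39 UMIs. Sord and Nupr1 were not restricted in this way. The AT2 share of Sord UMIs was 21.1% in the Cre library and 57.7% in the control library, and that of Nupr1 was 5.22% (Cre) and 30.2% (control). By level, AT2-gated cells ranked 8th of 22 in the Cre library and 2nd in the control library for Sord, and 14th (Cre) and 5th (control) for Nupr1.

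**Figure D4:**
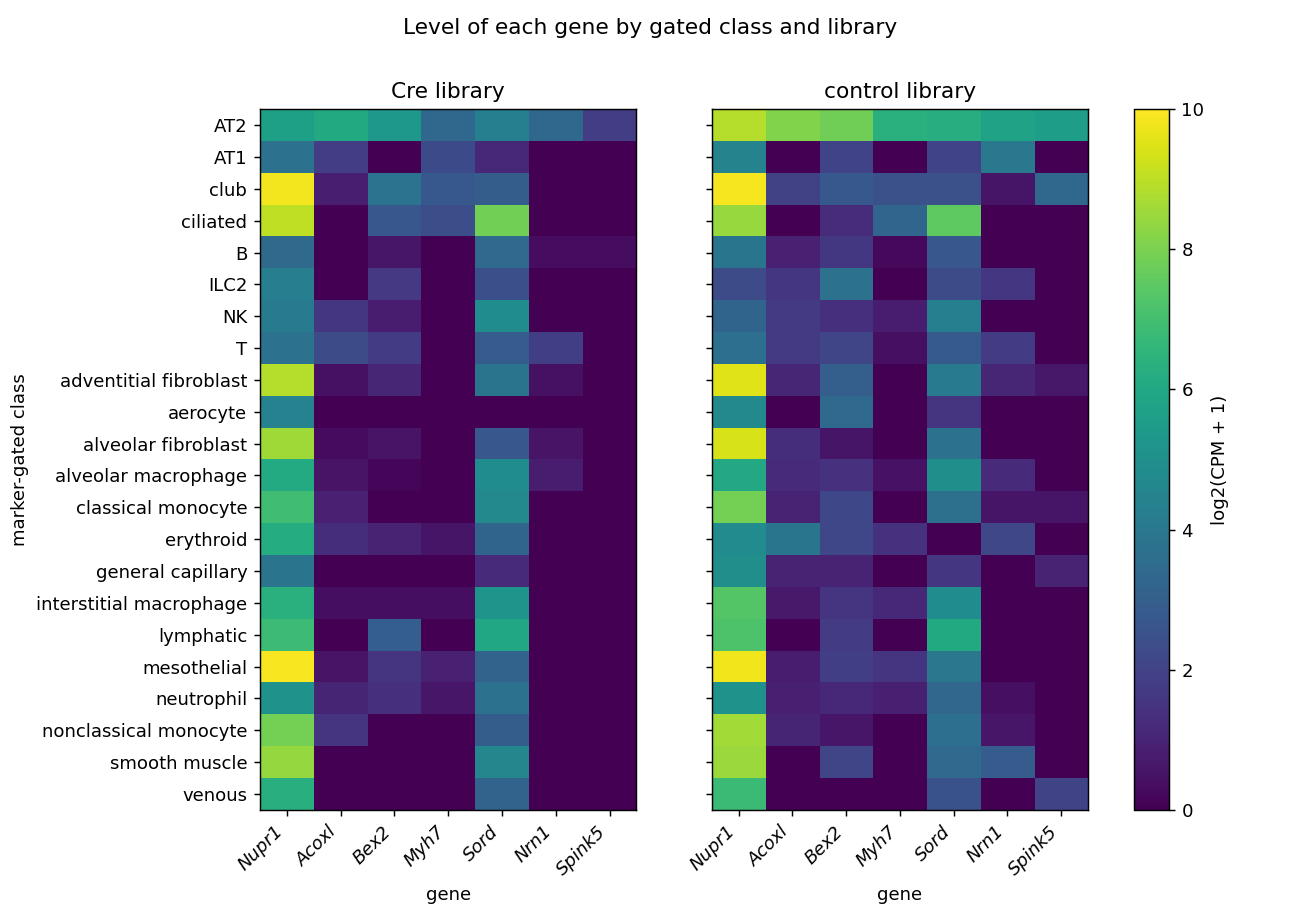
Level of each gene as log2(CPM + 1) in the 22 gated classes compared, with the Cre library in the left panel and the control library in the right panel. Acoxl, Bex2, Myh7, Nrn1 and Spink5 are highest in the AT2 row of both panels, Nupr1 is high in club, mesothelial and fibroblast rows of both, and Sord is highest in the ciliated row.

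In the airway, Nupr1 stood in club-gated cells at 917 CPM (Cre) and 943 CPM (control), a ratio of 0.972 (0.936 to 1.01), and it was found in 184 of 214 Cre and 178 of 190 control cells. Without the top cell of each library the ratio was 0.945 (0.909 to 0.983), an interval below 1. Genes of club-gated cells had a median ratio of 1.55. In ciliated-gated cells Nupr1 stood at 527 CPM in the Cre library and 349 CPM in the control library, a ratio of 1.51 (1.28 to 1.78), with 1 Cre cell holding 102 of 374 UMIs. Without the top cell of each library the ratio was 1.31 (1.09 to 1.58). Ciliated cells were also the class with the highest Sord level, at 235 CPM in the Cre library and 182 CPM in the control library, a ratio of 1.29 (1.02 to 1.64). Sord was detected in 45 of 66 Cre and 53 of 90 control ciliated cells.

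Bex2 in club-gated cells stood at 12.9 CPM (67 UMIs in 38 of 214 cells) in the Cre library and 5.81 CPM (37 UMIs in 19 of 190 cells) in the control library, a ratio of 2.22 (1.47 to 3.42). Myh7 stood at 5.79 CPM (Cre) and 4.56 CPM (control) there, a ratio of 1.27 (0.737 to 2.19). Spink5 was at 0 in the club-gated cells of the Cre library, and at 60 UMIs (9.42 CPM) in those of the control library. Against a floor of 3 counts over the Cre class this is at least 16.3-fold lower in Cre, and by the counting interval (ratio 0 to 0.0779) at least 12.8-fold lower. A single control cell held 32 of the 60 UMIs, and 8 of 190 cells had any. Without that cell 28 UMIs were left, at least 7.65-fold lower in Cre against the same floor and at least 5.82-fold by the interval. The few neuroendocrine-gated cells, 14 in the Cre library and 8 in the control library, were the cells richest in Bex2, with 414 CPM (UMIs in 13 of 14 cells) in Cre and 530 CPM (8 of 8 cells) in control. In the same cells Nupr1 had 10 Cre UMIs and 48 control UMIs, 94.0 against 670 CPM, a ratio of 0.140 (0.0633 to 0.281). Neuroendocrine markers were scarce in AT2-gated cells, with Chga at 0 in both libraries, Calca at 28 Cre and 1 control UMIs, Syp at 9 Cre and 5 control UMIs and Scg5 at 10 Cre and 18 control UMIs; their part in the Bex2 values was not tested.

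AT1-gated cells had few UMIs of any of the 7. They were shallow, with medians of 1007 UMIs (Cre) and 1030 UMIs (control). A floor of 3 counts was 3.74 CPM in Cre and 9.08 CPM in control, so lower levels could not be measured there. Nupr1 stood at 12.5 CPM (10 UMIs) in the Cre library and 21.2 CPM (7 UMIs) in the control library. Nrn1 had no UMI in Cre and 5 UMIs (15.1 CPM) in control AT1-gated cells. The other 5 had 3 UMIs or fewer in each library.

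Outside the epithelium, Nupr1 was highest in mesothelial cells, which cover the lung surface, at 966 CPM in the Cre library and 892 CPM in the control library (ratio 1.08, 1.02 to 1.15). Both fibroblast classes were lower in Cre: alveolar fibroblasts stood at 378 against 663 CPM (0.571, 0.531 to 0.614) and adventitial fibroblasts at 476 against 730 CPM (0.652, 0.603 to 0.704). Median depth of alveolar fibroblasts was 3516 UMIs in Cre and 1442 UMIs in control, and its part in the difference was not tested. The same held for interstitial macrophages at 81.2 against 158 CPM, classical monocytes at 123 against 237 CPM and nonclassical monocytes at 243 against 395 CPM. Alveolar macrophages, at 67.7 CPM in Cre and 64.4 CPM in control, and smooth muscle, at 338 CPM in Cre and 358 CPM in control, had intervals that held 1. Erythroid-gated cells had 71.3 against 27.2 CPM, a ratio of 2.62 (1.56 to 4.70), in a class whose median gene had a ratio of 2.08.

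Sord was found in resident and recruited leukocytes. Interstitial macrophages stood at 34.7 CPM in the Cre library and 27.9 CPM in the control library, alveolar macrophages at 28.1 CPM (Cre) and 30.8 CPM (control), and natural killer cells at 27.7 CPM (Cre) and 19.1 CPM (control), all with intervals that held 1. Classical monocytes stood at 25.2 against 11.9 CPM, a ratio of 2.11 (1.19 to 3.79), and B cells at 9.72 against 5.58 CPM, a ratio of 1.74 (1.08 to 2.82). Lymphatic endothelial cells, at 62.9 CPM (Cre) and 66.7 CPM (control), had the next highest level after ciliated cells in the Cre library. Alveolar fibroblasts stood at 5.64 against 12.4 CPM, a ratio of 0.456 (0.251 to 0.827).

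**Figure D5:**
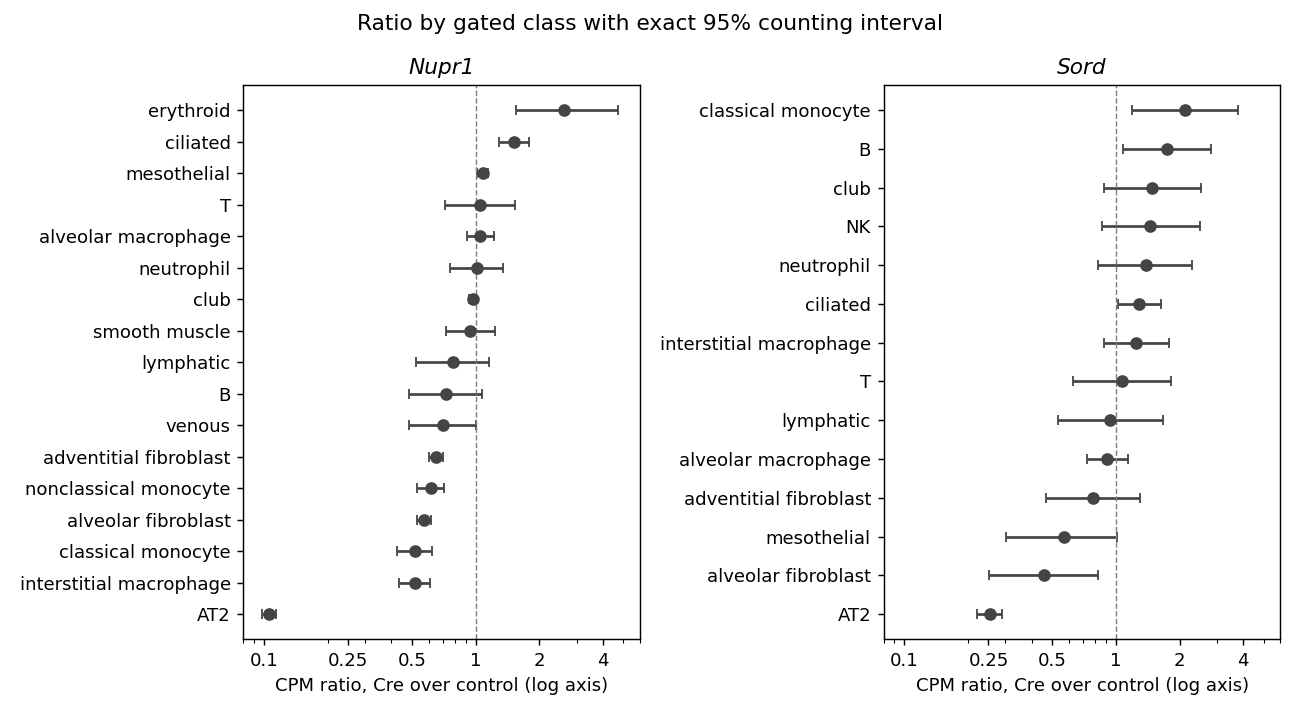
Ratio of CPM, Cre over control, on a log axis, for Nupr1 (left) and Sord (right) in each of the 22 classes compared that had at least 50 UMIs of the gene over both libraries; lines are exact 95% counting intervals. Among the classes drawn, AT2-gated cells have the lowest ratio for both genes (0.106 and 0.254). Both genes were chosen for a low ratio in AT2 cells, so nothing is drawn from that place. The other classes run from 0.515 to 2.62 for Nupr1 and from 0.456 to 2.11 for Sord.

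The gene lists around the 7 were described by counts and medians, beside an all-gene median log2 ratio of 0.25 in AT2-gated cells and the shares of all measured genes at least 2-fold lower (1.87%) and higher (6.89%). The lists are short, and nothing particular to a list is read from its counts. Among 20 AT2 identity and surfactant genes, some of which define the gate, 1 was at least 2-fold lower in Cre (Lyz2, lysozyme, ratio 0.453) and none was 2-fold higher, with a median log2 ratio of -0.37. Sftpc, surfactant protein C, stood at 0.697 and Abca3, a lamellar body lipid transporter, at 0.787. The list did not move in 1 direction: Sftpd, surfactant protein D, stood at 1.74, Nkx2-1 at 1.41 and Cxcl15 at 1.27.

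Around Acoxl, none of 14 measured peroxisomal fatty acid oxidation genes passed 2-fold in either direction, with a median log2 ratio of 0.01. Cat, catalase, which breaks down the hydrogen peroxide made there, stood at 0.535. Around Sord, none of 10 measured polyol pathway and fructose genes passed 2-fold, with a median of -0.05. Akr1b3, aldose reductase, which makes the sorbitol that Sord uses, stood at 0.794, and Khk, ketohexokinase, which uses the fructose that it makes, at 1.46.

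Around Nupr1, 2 of 17 measured integrated stress response genes and Nupr1 partners were at least 2-fold higher and none lower, with a median of 0.38. The 2 were Slc7a11, the cystine transporter, at 3.35 (132 Cre and 37 control UMIs) and Psat1, a serine synthesis enzyme, at 3.28 (101 Cre and 29 control UMIs). Atf4, the central transcription factor of that response, stood at 1.18 and Ddit3, its stress-induced partner, at 1.22.

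Around Bex2, 1 of 7 measured Bex and Tceal genes was at least 2-fold lower and 1 higher, with a median of 0.29. Bex1 was at 0.430, Bex4 at 0.503 (163 CPM in Cre and 323 CPM in control cells) and Bex3 at 1.22. Tceal3 was at 17.8 CPM in Cre and 0.986 CPM in control cells, a ratio of 18.1 (10.6 to 33.5). Ratios within 1 family thus lay on both sides of 1 in the same cells.

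Around Myh7, 5 of 24 striated muscle genes were measured, of which 2 were at least 2-fold lower and 1 higher, with a median of -0.25. Cox6a2, a muscle form of a cytochrome c oxidase subunit, had 356 Cre UMIs and 3289 control UMIs, a ratio of 0.102 (0.0910 to 0.114). Ttn, titin, was at 0.328 (23 Cre and 66 control UMIs) and Myl4, an atrial light chain, at 3.19 (61 Cre and 18 control UMIs). Around Nrn1, 3 of 4 measured neuronal activity genes were at least 2-fold higher (Homer1 at 2.77, Egr3 at 2.14 and Arc at 5.52) and none lower, with a median of 1.28. Around Spink5, 1 of 7 measured Kazal inhibitors and kallikreins was higher (Klk8 at 2.03, 69 Cre and 32 control UMIs) and none lower, with a median of 0.34.

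Likeness of pattern was measured as Pearson's r of log2(CPM + 5) over 44 columns, 22 classes in 2 libraries, among 10675 candidate genes. The columns share libraries and depth, and no p is given. With a pseudocount of 20 in place of 5, 14 of the 21 genes named below were named again. The 5 AT2-restricted genes correlated with each other at r between 0.68 and 0.84, and with Sord and Nupr1 at r between 0.02 and 0.38. The columns include AT2-gated cells of both libraries, where these 5 genes were highest and by whose difference they were chosen. Their r with each other thus follows in part from that choice, and nothing is drawn from it. No r was computed without the AT2 columns, and the nearest genes below carry the same limit. The nearest genes to Acoxl were Myh13 (r 0.944), Mbl1 (0.935) and Hkdc1 (0.929), of which Mbl1 and Hkdc1 had AT2 ratios of 0.775 and 0.910 with intervals that held 1. Nearest to Bex2 were Bpifb5 (0.895), Cst8 (0.879) and Pla2g1b (0.875). Nearest to Myh7 were Galnt13 (0.919), Pla2g1b (0.913) and Rap1gapos (0.913). Nearest to Nrn1 were Fabp12 (0.879), Cox6a2 (0.847) and Tex11 (0.815), and nearest to Spink5 were Tex11 (0.890), Galnt13 (0.880) and Hes2 (0.855). Hes2 had 5 Cre UMIs and 119 control UMIs in AT2-gated cells, a ratio of 0.0395 (0.0125 to 0.0948), lower than that of Spink5. Sord was most like Neurl1a (0.774), Adam22 (0.736) and Ropn1l (0.711), and Nupr1 most like Mgst1 (0.749), Rhou (0.739) and Akr1b8 (0.726). In AT2-gated cells Rhou and Akr1b8 were higher in Cre, at ratios of 2.097 and 1.68, opposite to Nupr1.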

How the data were processed

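Whole-lung single-cell libraries, 1 per genotype, were given as raw UMI counts per gene and barcode, deposited by the authors; per the submitters' processing notes they were made with Cell Ranger 3.1.0 and STAR on mm10. Cells needed at least 200 genes, 500 UMIs and at most 20% mitochondrial UMIs; Scrublet (through scanpy 1.11.5) called 454 Cre and 420 control barcodes doublets, which were removed. Kept and removed barcodes together numbered 16821 in Cre and 13587 in control, with 81598779 and 74219499 UMIs. Each cell took the class with the best mean marker score (values scaled to the 99th percentile of cells with the marker), at a score of at least 0.25 and a gap of at least 0.1 to the next class; this scoring rule was set after the files had been seen. UMIs were summed per class and library, and ratios carry exact conditional Poisson intervals at 95%. Shares have exact Clopper-Pearson intervals. UMIs of 1 cell are separate molecules, but 1 pooled library per genotype gives no spread between mice.

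The 7 genes and all gene lists were chosen with earlier results of these data known. Some listed genes are not reported here by name. Genes named beyond them are Stk11, list examples and, per gene, the 3 most correlated genes over classes; Sox9, Slc26a4, Retnla and Hes2 were named with their values known. "Measured" genes had at least 50 UMIs in AT2-gated cells of both libraries together. Levels are not per length, since 3' counting gives 1 tag per molecule. Free AT2 RNA in a class was estimated from its Sftpc level. Genome positions are from GENCODE M21, which matched 30934 of 31053 gene identifiers. Ratios were tested on simulated counts with known folds: intervals held the true value for 95.4% of 10783 unchanged genes and 97.5% of 40 genes made 10 times lower (a fold of 0.1). This coverage is not carried over to genes whose counts spread more between cells than random sampling. Nupr1 and Spink5 are such genes, with a thinned variance over mean of 1.69 and 3.22 in Cre cells. Alternatives covered the gate, filters, doublets, depth, scaling and free RNA.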

Additional observations from a re-analysis of the deposited data

Results flagged for a closer look

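Among classes of at least 50 cells in each library and at least 50 UMIs of the gene over both, 7 ratios outside AT2-gated cells lay above 1 with their whole counting interval, while the same gene was below 1 in AT2-gated cells. Others lay wholly below 1: Nupr1 in both fibroblast classes, interstitial macrophages and both monocyte classes, Sord in alveolar fibroblasts and Spink5 in club-gated cells. The remaining intervals held 1. The difference between classes was not tested, since each genotype is 1 library. Bex2 in club-gated cells had a ratio of 2.22, Cre over control. Sord had ratios of 2.11 in classical monocytes, 1.74 in B cells and 1.29 in ciliated cells. Nupr1 had ratios of 2.62 in erythroid cells, 1.51 in ciliated cells and 1.08 in mesothelial cells. The median gene stood at 1.55 in club cells, 2.08 in erythroid cells, 1.12 in classical monocytes, 1.16 in B cells, 1.04 in ciliated cells and 1.02 in mesothelial cells. Only the intervals of Sord in classical monocytes and Nupr1 in ciliated cells lay above these medians, and those of the other ratios named here held them. Sftpc, read as free AT2 RNA, had a ratio of 0.405 in club-gated, 0.904 in B-gated and 1.44 in ciliated-gated cells, and its part in these values was not tested.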

How the results depend on the processing

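No paired analysis was possible because each genotype is 1 library and the labels give no replicate numbers. All 7 genes stayed at least 2-fold lower in AT2-gated cells under every alternative tried, with ratios of 0.204 to 0.265 for Acoxl, 0.0953 to 0.207 for Bex2, 0.0954 to 0.320 for Myh7, 0.113 to 0.230 for Nrn1, 0 to 0.0668 for Spink5, 0.132 to 0.295 for Sord and 0.0700 to 0.126 for Nupr1. In the other gated classes, no ratio whose counting interval excluded 1 crossed 1 under an alternative.

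AT2 ratios that left their own counting interval were as follows, and the cause was not tested. The joint cluster led by AT2 markers gave 0.0973 for Nupr1, and keeping doublets gave 0.117. Thinning to 1000 UMIs gave 0.265 for Acoxl, and means of single-cell CPM gave 0.261 for Acoxl and 0.0952 for Nupr1. Division by the all-gene median gave 0.204 for Acoxl, 0.145 for Bex2, 0.214 for Sord and 0.0891 for Nupr1. Leaving the 10 most abundant genes out of the total gave 0.215 for Acoxl, 0.152 for Bex2 and 0.0936 for Nupr1. Taking off the B-gated level gave 0.132 for Sord and 0.0871 for Nupr1. Depth limits and the top-cell exclusion were chosen after seeing the data: cells of 2000 to 5000 UMIs gave 0.0953 for Bex2, 0.320 for Myh7, 0 for Spink5 (0 Cre UMIs), 0.295 for Sord and 0.0700 for Nupr1; cells of 5000 to 10000 gave 0.207 for Bex2 and 0.230 for Nrn1; cells of over 10000 gave 0.155 for Bex2, 0.113 for Nrn1 and 0.126 for Nupr1. Without the top cell Spink5 was 0.0365.

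Shares of cells with a UMI grow with depth by construction. Thinned to 2000 UMIs, they were 10.1% (Cre) and 38.0% (control) for Acoxl, 6.19% and 30.8% for Bex2, 2.18% and 14.5% for Myh7, 7.35% in control for Nrn1, 7.19% in control for Spink5, 2.83% and 14.8% for Sord, and 6.90% and 52.9% for Nupr1. Without thinning they were 25.4% and 70.6% for Acoxl, 17.7% and 56.7% for Bex2, 6.66% and 41.8% for Myh7, 3.797% and 16.7% for Nrn1, 1.21% and 22.9% for Spink5, 12.9% and 44.7% for Sord, and 19.6% and 82.5% for Nupr1. A doubled gate gap gave 7.81% in control for Sord. The share of genes at least 2-fold lower was 9.44% of genes with at least 1 UMI and 3.03% after division by the all-gene median. In other classes, a doubled gap brought Nupr1 in erythroid-gated cells to 1.38. With the B-gated level taken off, Sord moved to 0.313 in adventitial fibroblasts (0.780 before), 0.728 in alveolar macrophages (0.912 before) and 0.785 in neutrophils, which crossed 1 (1.39 before); the intervals of all 3 held 1. For gene likeness, 14 of 21 named genes were kept with a pseudocount of 20.

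One pooled library per genotype leaves differences between mice, or captures unmeasured. Spink5, Myh7 and Nrn1 rest on 38, 137 and 141 UMIs in Cre AT2-gated cells. Counting does not say whether the same transcript ends were read in both libraries.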
